A study of Drosophila melanogaster with 9 samples.

Results

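The juvenile hormone genes described here are 8 of the 10242 genes with values in the series: the receptors Met and gce, their coactivator tai, the target gene Kr-h1, the esterase Jhe and the epoxide hydrolases Jheh1, Jheh2 and Jheh3. They were chosen by name, by matching FlyBase gene identifiers to symbols, and all 8 were found and passed the filter on low values. Poly(A) RNA of the Drosophila melanogaster fat body had been sequenced in 9 libraries, each from 5 animals. Eggs were kept for 21 h at 21 °C and the animals then grew at 25 °C.

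The 3 groups of 3 libraries were compared. The prepupae titled LacZ, called titled-LacZ prepupae here, and those titled mitf, called titled-mitf prepupae, were both taken at the white prepupa stage, when the puparium forms, and the genotype label of all 6 reads UAS-Mitf/+; Lsp2-GAL4/+. The larvae were of instar 3, carry the title e3IL and have the genotype UAS-LacZ/+; Lsp2-GAL4/+. Every animal thus carried Lsp2-GAL4, a driver that takes its activity from a gene for a storage protein of the late larval fat body, so that a transgene is switched on mainly in that organ. LacZ is a bacterial enzyme that serves as a control transgene, and Mitf is a transcription factor of the MiT/TFE family, which acts on lysosome and autophagy genes. The labels conflict: the column headers inside the tables call the libraries titled LacZ mitf, and those titled mitf LacZ. Mitf itself stood at 35204, 68535 and 45647 normalised read counts in titled-LacZ prepupae, at 346.9, 370.4 and 407.1 in titled-mitf prepupae, and at 378.2, 384.9 and 410.7 in larvae. The high Mitf of the libraries titled LacZ goes against their title. By these values the titled-LacZ prepupae were the Mitf-high group, with a mean 132.9 times that of titled-mitf prepupae. The titled-mitf prepupae stood near the larvae, at 0.958 times their mean. The title LacZ is therefore not to be read as a low-Mitf control. Each prepupa group is still named by its title throughout, and differences between them run as titled LacZ minus titled mitf. Both comparisons with larvae use the same larvae, and all 3 comparisons share libraries in pairs. Titled-LacZ prepupae differed from larvae both in stage and in Mitf (log2 difference 6.93), and the parts of these cannot be told apart. The genotype labels of both prepupa groups also differ from that of the larvae.

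The summed values were 17195757 to 18187221 in titled-LacZ prepupae, 23607147 to 24354238 in titled-mitf prepupae and 22604438 to 27178650 in larvae. Genes for 6 storage and fat body proteins held 6.27% to 8.16% of these sums in titled-LacZ prepupae. They held 41.4% to 42.8% in titled-mitf prepupae and 29.0% to 42.6% in larvae. Scaling to library totals, used below as an alternative, therefore raises all values of titled-LacZ prepupae relative to the other groups. Fat body marker genes, 12 of 12 with values, summed to 1136039 to 1570890 in titled-LacZ prepupae, 10358766 to 10688677 in titled-mitf prepupae and 7872045 to 12888584 in larvae. Markers of other organs also moved with the groups. Of 10 gut markers 8 had values, and these summed to 5519 to 8637 in titled-LacZ prepupae, 2.55 to 18.3 in titled-mitf prepupae and 10.9 to 18.7 in larvae. betaTry, deltaTry, epsilonTry, Mal-B1 and Amy-p were listed at 0 in all titled-mitf prepupae. Of 10 Malpighian tubule markers 9 had values, with sums of 43813 to 46469 in titled-LacZ prepupae, 3339 to 3744 in titled-mitf prepupae and 2233 to 2859 in larvae. Hemocyte markers, 9 of 10 with values, summed to 3407 to 5478, 6045 to 7476 and 80920 to 134033 in the same order of groups. Muscle markers, 8 of 8, summed to 5733 to 7071 in titled-LacZ prepupae, 849 to 1104 in titled-mitf prepupae and 2921 to 3404 in larvae. Neuron markers, 4 of 5, summed to 1995 to 3188 in titled-LacZ prepupae, 19367 to 20726 in titled-mitf prepupae and 2127 to 3383 in larvae. Single markers did not all follow these sums. In titled-LacZ prepupae against larvae, 5 hemocyte markers were called higher and 3 lower (adjusted p under 0.05 by limma). Of the muscle markers, 1 was higher and 6 lower there, beside 46.3% higher and 32.2% lower over all tested genes. In titled-mitf prepupae against larvae, 3 hemocyte markers were higher and 2 lower, beside 34.8% and 31.7% over all tested genes. Between the prepupa groups, 2 neuron markers were higher and 1 lower in those titled LacZ, beside 41.1% and 31.6% over all tested genes. Those of testis and gonad (3 of 7) reached at most 527, of epidermis and discs (9 of 9) at most 318 and of salivary gland (1 of 9) at most 41.5 in any library. The part of these other tissues in the results below was not tested. In such bulk samples, fewer cells of a type and less RNA per cell cannot be told apart.

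Juvenile hormone is a lipid hormone that the corpus allatum, a part of the larval ring gland, releases into the blood, and that keeps an insect in its larval form until metamorphosis. Met and gce are paired bHLH-PAS proteins that bind it. Together with tai they switch on Kr-h1, a zinc finger repressor that holds back metamorphosis genes such as br and Eip93F. The hormone is inactivated by an esterase, which opens its methyl ester, and by epoxide hydrolases, which open its epoxide ring. In fly larvae, loss of Met and gce is known to bring forward the death of fat body cells, which otherwise outlive the larva.

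The receptor Met stood at 88.4, 41.8 and 70.0 in titled-LacZ prepupae, at 124, 88.2 and 111 in titled-mitf prepupae, and at 229, 227 and 190.0 in larvae (gene FBgn0002723, X, 11616124 to 11621280, plus strand, BDGP6). All 6 prepupa libraries lay below the larvae, and the prepupa groups touched, since replicate 1 titled LacZ lay just above replicate 2 titled mitf. Against larvae Met fell in titled-LacZ prepupae (log2 difference -1.73 ± 0.26, SE, adjusted p = 0.000163 by limma) and in titled-mitf prepupae (-0.999 ± 0.26, adjusted p = 0.00696). Differences are on the log2(value + 1) scale throughout. Between the prepupa groups the log2 difference was -0.73 ± 0.26 (adjusted p = 0.0289). That call was lost with library totals (-0.31), in a fit of these 2 groups alone (-0.73), without replicate 1 (-0.63) or 3 (-0.70) titled mitf and without replicate 2 titled LacZ (-0.44).

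gce, the paralogue of Met (FBgn0261703, X, 15297766 to 15319074, plus strand), lay below the larval level in titled-LacZ prepupae, as Met did, and above it in titled-mitf prepupae. Its values were 300.0, 179 and 231 in titled-LacZ prepupae, 507, 515 and 511 in titled-mitf prepupae, and 403, 345 and 350 in larvae. The 3 groups did not overlap, with the titled-LacZ prepupae lowest and the titled-mitf prepupae highest. Relative to larvae gce was lower in titled-LacZ prepupae (log2 difference -0.65 ± 0.17, adjusted p = 0.00536), a call lost with library totals (-0.16). It was higher in titled-mitf prepupae (0.48 ± 0.17, adjusted p = 0.0285), a call lost without replicate 2 (0.44) or 3 (0.45) of the larvae or without replicate 1, 2 or 3 titled mitf (0.48 to 0.49). The prepupa groups differed by -1.14 ± 0.17 (adjusted p = 0.000170), or by -0.71 with library totals. Antisense genes are annotated on the other strand of gce. The libraries were stranded, per the labels' protocols, but whether strand was used in counting is not given in the sources used here.

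Per length, gce outnumbered Met in every library. With each value divided by the longest annotated transcript, 5.52 kb for gce and 5.09 kb for Met, gce made up 76.9% ± 2.5 of the summed level of both in titled-LacZ prepupae, 81.4% ± 2.69 in titled-mitf prepupae and 61.0% ± 2.38 in larvae (SD, n = 3 each). Both prepupa groups lay above all larvae, by 15.9 and 20.4 percentage points (two-sided exact permutation test, p = 0.1 each, the smallest that 3 against 3 allows, adjusted p = 0.109 over the 12 share tests made). Titled-LacZ prepupae and titled mitf overlapped (difference -4.46 points, exact p = 0.2).

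The coactivator tai, a p160 protein that also serves the ecdysone receptor (FBgn0041092, 2L, 9166778 to 9250211, plus strand), rose in both prepupa groups. It stood at 3950, 3504 and 3425 in titled-LacZ prepupae, at 2026, 1997 and 2155 in titled-mitf prepupae, and at 1537, 1545 and 1394 in larvae. The groups were fully separate. tai was higher than in larvae by 1.28 ± 0.09 in titled-LacZ prepupae (adjusted p = 4.46e-07) and by 0.47 ± 0.09 in titled-mitf prepupae (adjusted p = 0.000964). Between the prepupa groups it differed by 0.81 ± 0.09 (adjusted p = 1.67e-05), or by 1.25 with library totals. Mean levels in titled-LacZ prepupae were thus the lowest of both receptors and the highest of tai, as the plot of values by library shows.

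**Figure D1:**
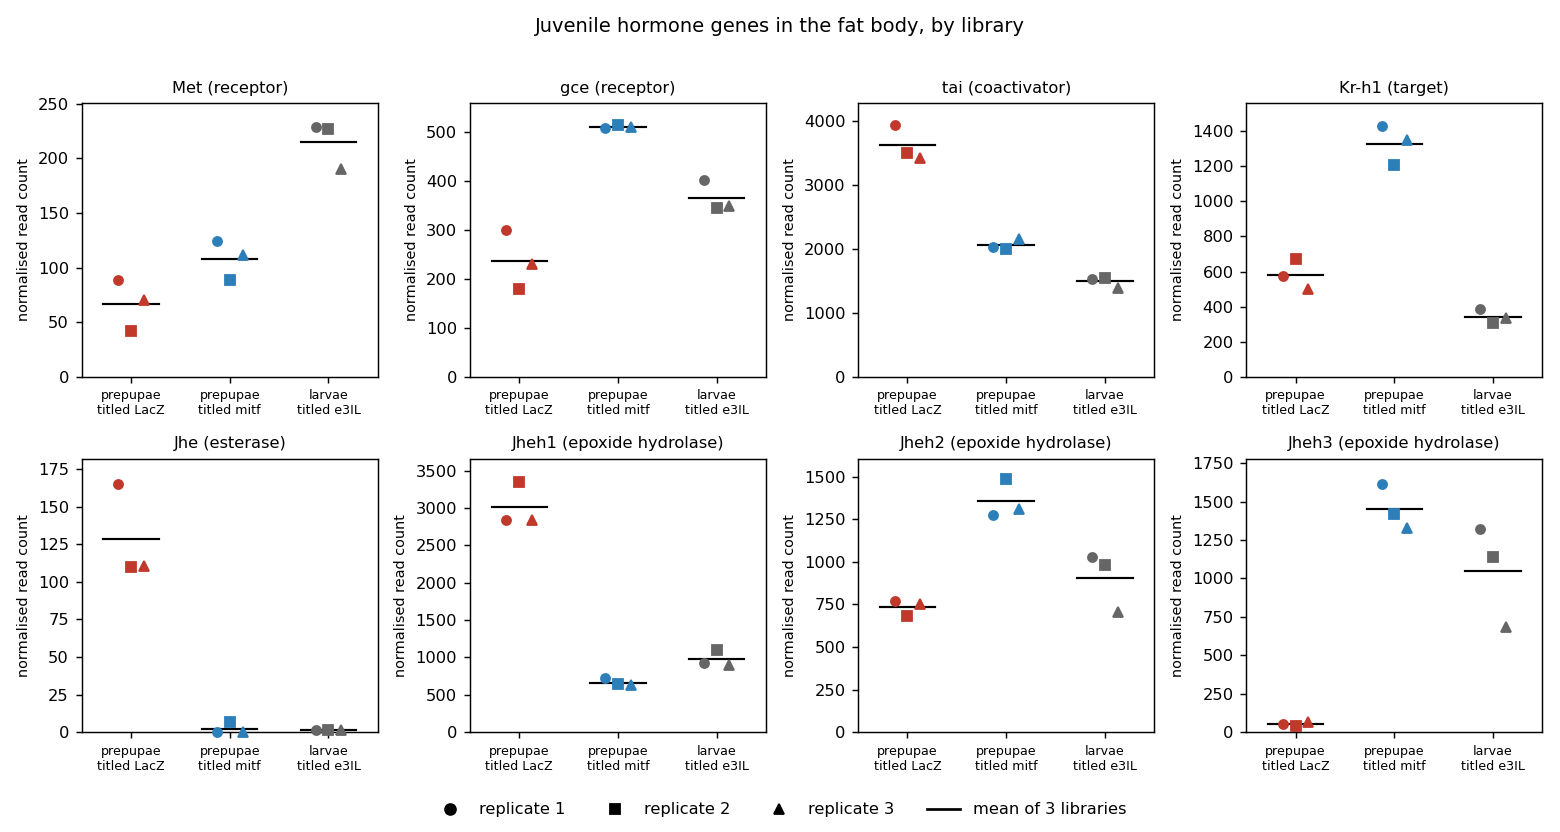
Normalised read counts (vertical axes, from 0) of the 8 genes in each library of the 3 groups. Points are libraries, with a marker for each replicate number, and black lines are group means. Jheh1 and Jhe are highest in titled-LacZ prepupae, and Kr-h1 and gce in titled-mitf prepupae.

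Kr-h1 (FBgn0266450, 2L, 6082603 to 6096498, plus strand) was higher in both prepupa groups than in larvae, and highest in titled-mitf prepupae. Its values were 577, 672 and 499 in titled-LacZ prepupae, 1429, 1210 and 1350 in titled-mitf prepupae, and 385, 308 and 336 in larvae. No library of any group reached into another group. The log2 difference from larvae was 0.76 ± 0.13 in titled-LacZ prepupae (adjusted p = 0.000472, and 1.25 with library totals) and 1.96 ± 0.13 in titled-mitf prepupae (adjusted p = 6.82e-07). The mean in titled-LacZ prepupae was 0.438 times that in titled-mitf prepupae (log2 difference -1.20 ± 0.13, adjusted p = 2.13e-05, and -0.77 with library totals). In the annotation 4168 of the 5306 exonic bases of Kr-h1 are shared with CG45075 on the same strand. CG45075 has no values in the series, and reads of the shared exons, most of the gene, cannot be assigned to Kr-h1 alone.

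Genes that act in metamorphosis were followed beside Kr-h1, in a list of 12 that included genes held back by Kr-h1 and genes switched on by ecdysone. Of these, 10 were higher and 1 lower in titled-LacZ prepupae than in larvae, with a median log2 difference of 5.14, against 0.50 over all tested genes. In titled-mitf prepupae 10 were higher and 2 lower than in larvae (median 5.12, against 0.08 over all tested genes). Between the prepupa groups 2 were higher and 7 lower in those titled LacZ (median -0.67, against 0.22), or 2 and 4 with library totals. Over all tested genes, 46.3% were higher and 32.2% lower in titled-LacZ prepupae than in larvae, and 34.8% and 31.7% in titled-mitf prepupae. Between the prepupa groups 41.1% of all tested genes were higher and 31.6% lower in those titled LacZ. The list thus lay higher in both prepupa groups than in larvae, together with Kr-h1.

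Eip93F, the factor that commits tissues to adult development, had 247, 66.0 and 183 in titled-LacZ prepupae, 1588, 1567 and 1922 in titled-mitf prepupae, and 1.37 in 1 larval library, the other larval libraries being listed at 0. It differed between the prepupa groups by -3.54 ± 0.49 (adjusted p = 9.71e-05). The largest rises over larvae were those of the nuclear receptor genes Hr4 (10.77 ± 0.37) and Hr3 (7.94 ± 0.46) in titled-LacZ prepupae, and of Hr4 (11.86 ± 0.37) and Eip93F (10.30 ± 0.49) in titled-mitf prepupae. For genes this low in larvae the size of the difference depends on the pseudocount. Hr38, another nuclear receptor, rose in titled-LacZ prepupae (4.43 ± 0.37 from larvae) and fell in titled-mitf prepupae (-2.41 ± 0.37). ftz-f1, the competence factor of the prepupa, fell in both, in titled-LacZ prepupae (-2.47 ± 0.23) and in titled-mitf prepupae (-2.54 ± 0.23).

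Matrix metalloproteinases, enzymes that loosen the fat body, separated the prepupa groups. Mmp1 averaged 2257 ± 397 in titled-LacZ prepupae, 9597 ± 1544 in titled-mitf prepupae and 31.0 ± 10.8 in larvae (SD, n = 3 each). Its log2 difference between the prepupa groups was -2.09 ± 0.23, and that of Mmp2 was -3.57 ± 0.39. Hr38 (6.84 ± 0.37) and Hr39 (0.71 ± 0.19) were the list's 2 genes that were higher in titled-LacZ prepupae than in those titled mitf. br, the pupal specifier, averaged 8909 ± 1494 in titled-LacZ prepupae, 12196 ± 194 in titled-mitf prepupae and 1590 ± 359 in larvae. It rose over larvae by 2.496 ± 0.16 in titled-LacZ prepupae and by 2.96 ± 0.16 in titled-mitf prepupae. Its difference between the prepupa groups, -0.47 ± 0.16 (adjusted p = 0.0262), was lost with library totals (-0.03), without any 1 replicate titled mitf and without replicate 1 or 3 titled LacZ (-0.39 to -0.48). Levels of these genes in each library are drawn beside Kr-h1.

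**Figure D2:**
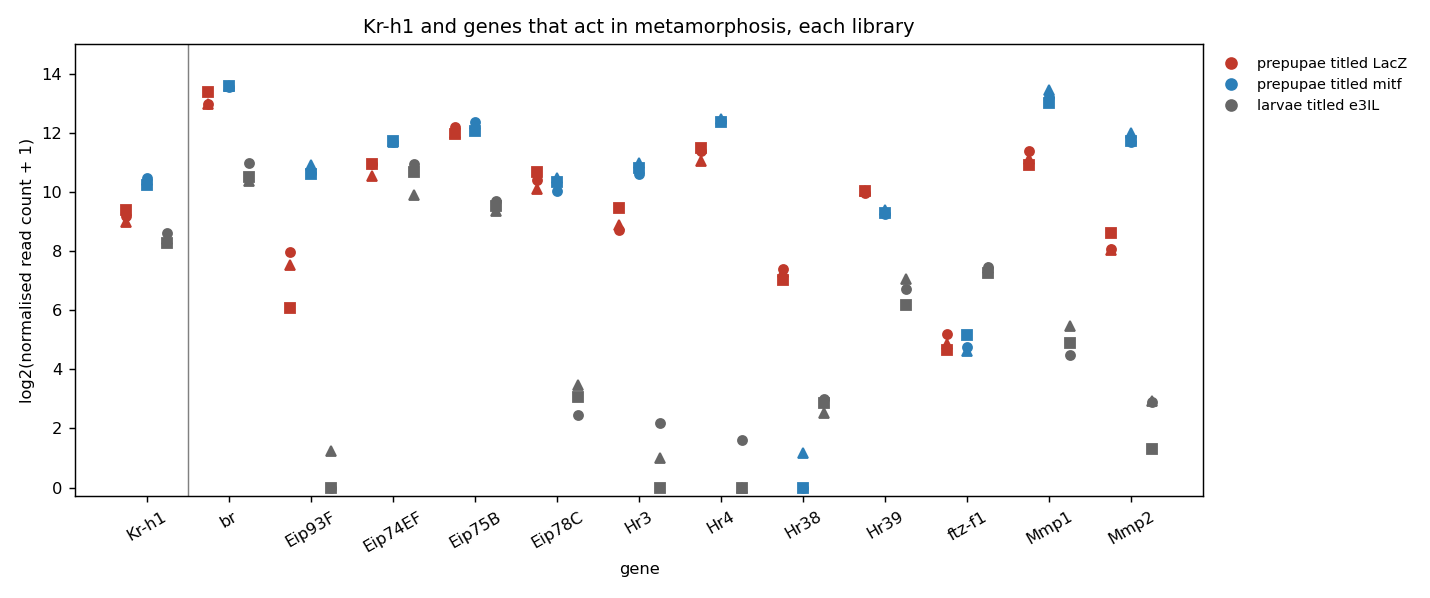
Level of Kr-h1 (left of the line) and of 12 genes that act in metamorphosis, as log2(normalised read count + 1), in each library; markers give the replicate number. Kr-h1, Eip93F, Mmp1 and Mmp2 lie lower in titled-LacZ prepupae than in titled-mitf prepupae, and higher in both than in larvae.

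The esterase gene Jhe (FBgn0010052, 2R, 16119793 to 16122773, plus strand) was near 0 outside 1 group. Its values were 165, 109.8 and 110.4 in titled-LacZ prepupae. They were 0, 6.43 and 0 in titled-mitf prepupae, and 1.35, 1.26 and 1.57 in larvae, where 1 read was worth about 0.778 to 1.39 of these units (0.914 to 1.28 in titled-mitf prepupae). Every library titled LacZ lay far above the other 6. The log2 difference was 6.02 ± 0.69 from titled-mitf prepupae (adjusted p = 2.54e-05) and 5.73 ± 0.69 from larvae (adjusted p = 3.04e-05). The first ranged from 4.31 to 8.29 between pseudocounts of 5 and 0.1, and the second from 4.36 to 6.41. Titled-mitf prepupae and larvae gave no called difference (-0.29 ± 0.69, adjusted p = 0.739). The exception was the fit without replicate 2 titled mitf, which left only libraries listed at 0 in that group and a called difference of -1.26. With a pseudocount of 5 this difference turned to 0.04.

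Jhedup, the tandem copy that lies 643 bases from Jhe, was likewise highest in titled-LacZ prepupae, at a low level: 7.17, 7.94 and 9.70 there, 0, 2.55 and 1.22 in titled-mitf prepupae, and 0, 1.25 and 0 in larvae. It was higher in titled-LacZ prepupae than in those titled mitf (2.21 ± 0.53, adjusted p = 0.00360) and than in larvae (2.81 ± 0.53, adjusted p = 0.000695). Reads of such a pair can be split between the copies. The gut and tubule marker sums given above were also highest in titled-LacZ prepupae, and their part in the Jhe values was not tested.

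The epoxide hydrolase genes lie head to tail within 8645 bases of chromosome 2R, all on the minus strand, and did not move together. As deposited, Jheh2 and Jheh3 shared the sign of their difference in each comparison, and Jheh1 had the other sign. Jheh1 (FBgn0010053, 18853434 to 18855087) stood at 2845, 3350.4 and 2847 in titled-LacZ prepupae, at 719.9, 647 and 627 in titled-mitf prepupae, and at 929, 1095 and 899 in larvae. All libraries titled LacZ lay above all larvae, and all libraries titled mitf below them. Jheh1 was higher than in larvae by 1.63 ± 0.11 in titled-LacZ prepupae (adjusted p = 3.98e-07), and differed by -0.55 ± 0.11 in titled-mitf prepupae (adjusted p = 0.00143). The prepupa groups differed by 2.18 ± 0.11 (adjusted p = 6.84e-08).

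Jheh3 (FBgn0034406, 18860375 to 18862078) showed the opposite pattern. It stood at 50.2, 38.9 and 67.9 in titled-LacZ prepupae, at 1615, 1417 and 1331 in titled-mitf prepupae, and at 1325, 1139 and 686 in larvae. The titled-LacZ prepupae lay far below the other 6 libraries, at 0.036 times the mean of titled-mitf prepupae and 0.0498 times the larval mean. The log2 differences were -4.80 ± 0.26 (adjusted p = 1.02e-07) and -4.28 ± 0.26 (adjusted p = 1.62e-07). Titled-mitf prepupae showed no called difference from larvae (0.52 ± 0.26, adjusted p = 0.103), other than with library totals (0.58) and without replicate 1 of the larvae (0.71), where the rise was called.

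Jheh2 (FBgn0034405, 18855767 to 18858245), which lies between the other two, had the smallest of the 3 differences in both comparisons of titled-LacZ prepupae. Its values were 772, 684 and 753 in titled-LacZ prepupae, 1272, 1488 and 1312 in titled-mitf prepupae, and 1029, 983 and 708 in larvae. Titled-mitf prepupae lay above all other libraries, while titled-LacZ prepupae and larvae overlapped. Jheh2 was higher than in larvae in titled-mitf prepupae (0.60 ± 0.14, adjusted p = 0.00410), and the prepupa groups differed by -0.88 ± 0.14 (adjusted p = 0.000309, and -0.45 with library totals). Between titled-LacZ prepupae and larvae no difference was called (-0.28 ± 0.14, adjusted p = 0.0953). A lower level was called with trimmed mean scaling (-0.34) and without larval replicate 3 (-0.45), and library totals turned the sign (0.21, not called).

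The make-up of the epoxide hydrolase transcripts therefore differed in each group. Per kb of transcript, Jheh1 made up 82.9% ± 2.32 of the 3 genes' summed level in titled-LacZ prepupae, 21.5% ± 0.843 in titled-mitf prepupae and 37.2% ± 5.86 in larvae. Jheh2 made up 15.7% ± 1.96, 34.0% ± 3.23 and 26.2% ± 0.415 in the same order of groups, and Jheh3 1.38% ± 0.449, 44.4% ± 2.46 and 36.5% ± 5.56 (SD, n = 3 each). No 2 groups overlapped in any of these shares, and each comparison had a two-sided exact permutation p of 0.1, the smallest possible (adjusted p = 0.109). The annotation places an antisense gene opposite all 3 genes, and a Bari1 transposon insertion in the 2129 bases between Jheh2 and Jheh3 of the reference strain. Neither was analysed here.

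**Figure D3:**
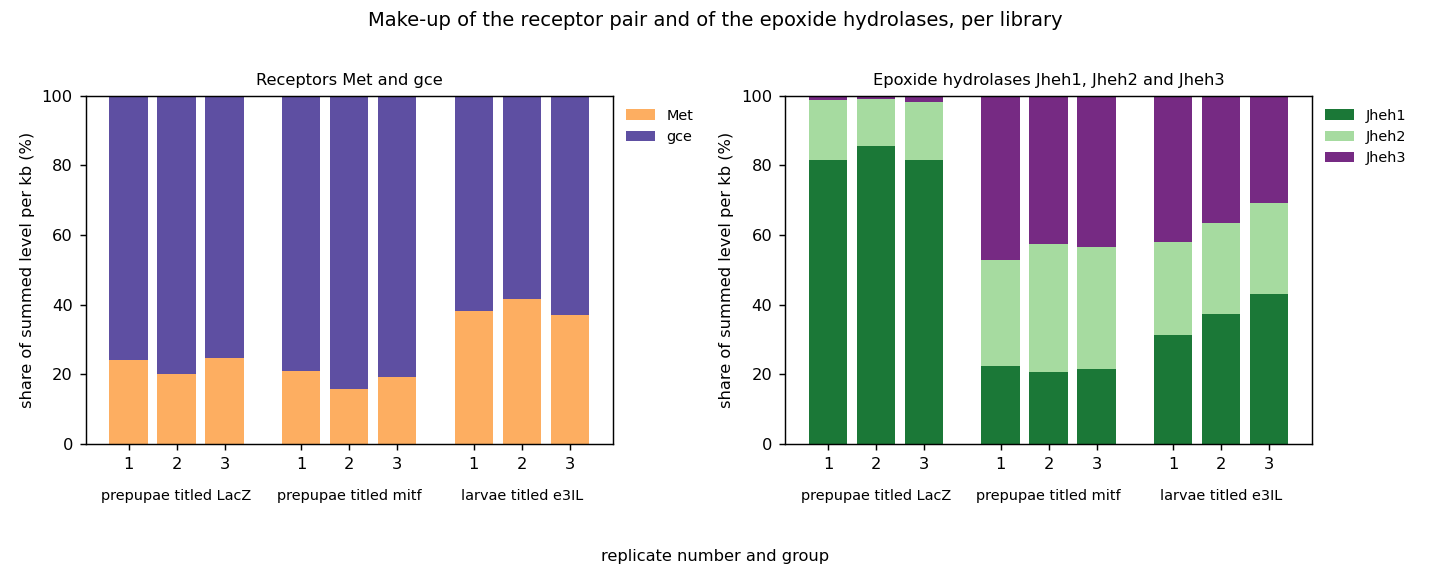
Share of the summed level per kb of longest transcript (vertical axis, %) held by Met and gce (left) and by the 3 epoxide hydrolase genes (right), 1 bar per library. gce makes up more of the receptor pair in all 6 prepupa libraries than in larvae, and Jheh3 takes under 2% of the hydrolases in each prepupa library titled LacZ.

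Counted together, 4 of the 8 genes were higher and 3 lower in titled-LacZ prepupae than in larvae, where 78.5% of all 10139 tested genes were called (46.3% higher and 32.2% lower). In titled-mitf prepupae 4 were higher and 2 lower than in larvae, against 66.4% called overall (34.8% higher and 31.7% lower). Between the prepupa groups 3 were higher and 5 lower in those titled LacZ, against 72.7% called overall (41.1% higher and 31.6% lower). A called difference was thus the usual case in these libraries, and the counts say nothing particular about the 8 genes. The libraries of both groups were fully separate for 7 of the 8 genes in each comparison, against 79.9%, 71.1% and 76.1% of all tested genes. The median size of the difference, without its sign, was 1.45 for the 8 genes and 1.63 for all tested genes in titled-LacZ prepupae against larvae, 0.53 and 1.08 in titled-mitf prepupae against larvae, and 1.17 and 1.28 between the prepupa groups.

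**Figure D4:**
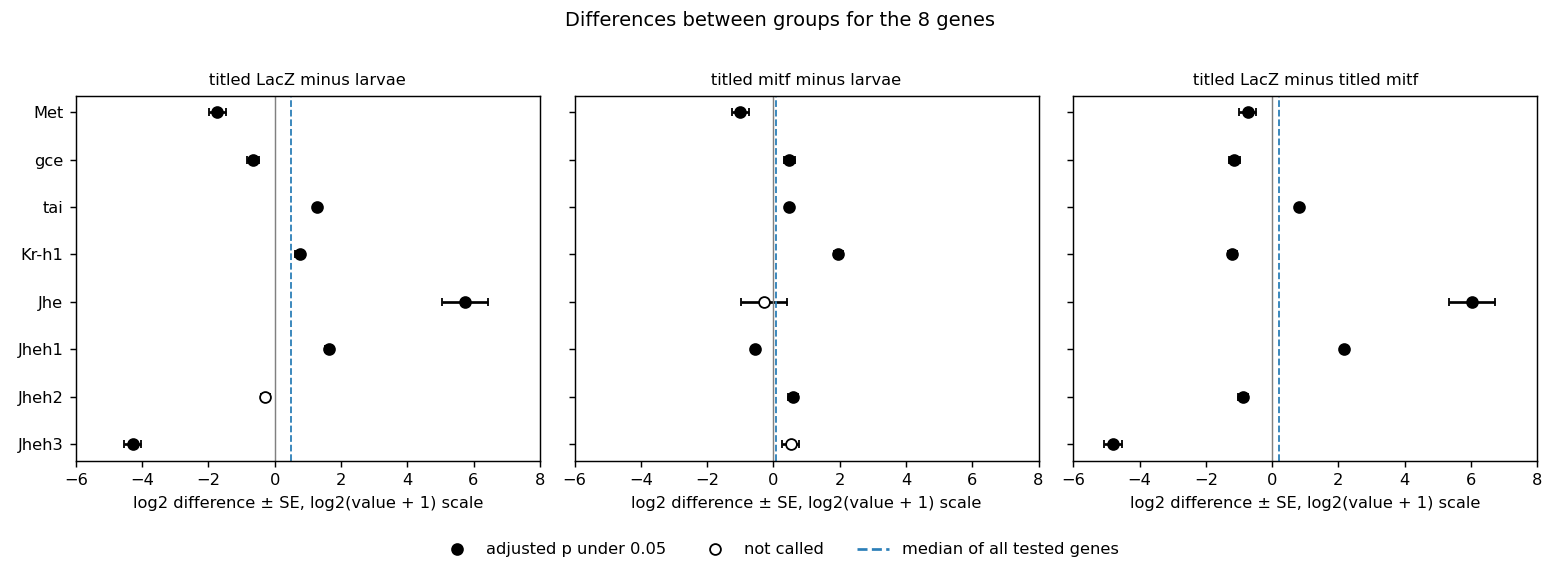
Log2 difference ± SE (horizontal axis, on the log2(value + 1) scale) of each gene in the 3 comparisons. Filled points passed an adjusted p of 0.05, and the dashed line is the median of all tested genes. Jhe and Jheh1 lie to the right and Jheh3 to the left in both comparisons of titled-LacZ prepupae.

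Levels per kb set the genes in a different order in each group. In titled-LacZ prepupae the mean levels per kb were 2028 ± 196 for Jheh1, 382 ± 23.9 for Jheh2, 319 ± 24.9 for tai, 130.2 ± 19.4 for Kr-h1, 63.4 ± 15.6 for Jhe, 42.9 ± 10.95 for gce, 33.2 ± 9.28 for Jheh3 and 13.1 ± 4.61 for Met (SD, n = 3). Among neighbours in that order, Jhe and gce overlapped between libraries, as did gce and Jheh3. In titled-mitf prepupae the order was Jheh3 (923 ± 92.5), Jheh2 (705 ± 59.7), Jheh1 (447 ± 33.0), Kr-h1 (297 ± 24.7), tai (181 ± 7.39), gce (92.5 ± 0.718), Met (21.2 ± 3.56) and Jhe (1.06 ± 1.83), with no overlap between neighbours. In larvae it was Jheh3 (666 ± 208), Jheh1 (656 ± 71.1), Jheh2 (471 ± 90.1), tai (131 ± 7.46), Kr-h1 (76.6 ± 8.78), gce (66.2 ± 5.85), Met (42.3 ± 4.32) and Jhe (0.687 ± 0.0785). There Jheh3 and Jheh1 overlapped, and so did Kr-h1 and gce.

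**Figure D5:**
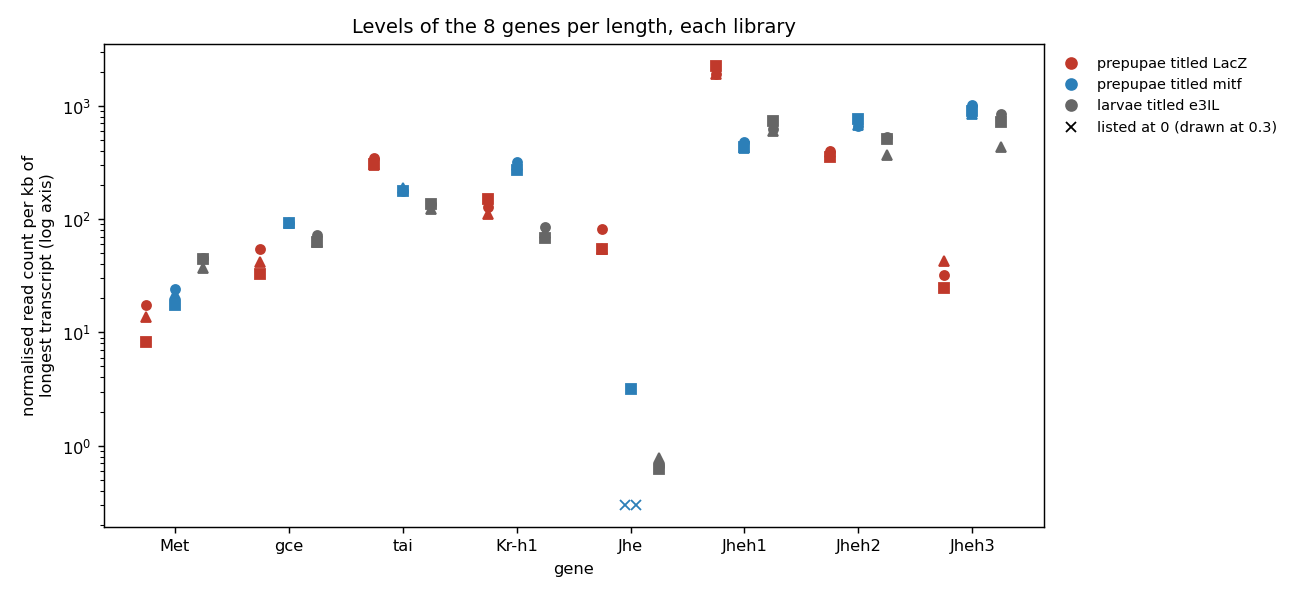
Normalised read count per kb of longest transcript (vertical log axis) of the 8 genes in each library; markers give the replicate number. Jhe was listed at 0 in 2 of the prepupa libraries titled mitf, drawn as crosses. Met is the lower of the 2 receptors in all 9 libraries.

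Genes listed for hormone production in the corpus allatum were mostly those of the general mevalonate pathway, which other tissues use too. Of 10 listed, 3 were higher and 6 lower in titled-LacZ prepupae than in larvae (4 and 4 with library totals), 2 higher and 5 lower in titled-mitf prepupae than in larvae, and 6 higher and 2 lower in titled-LacZ prepupae than in those titled mitf. The list includes jhamt, which passed the filter only through the titled-LacZ libraries. The list's medians were -0.79, -0.25 and 1.28, against 0.50, 0.08 and 0.22 over all tested genes. In the same order, 46.3%, 34.8% and 41.1% of all tested genes were higher and 32.2%, 31.7% and 31.6% lower. Hmgs, a synthase of the mevalonate pathway, differed from larvae by -3.99 ± 0.26 in titled-mitf prepupae, and the farnesyl diphosphate synthase Fpps by -3.61 ± 0.13. Mevalonate kinase, Mvk, went both ways, at -2.88 ± 0.16 in titled-LacZ prepupae and 0.77 ± 0.16 in titled-mitf prepupae, and differed by -3.64 ± 0.16 between them. The prenyl synthase qm, counted in the list though on a side branch that does not lead to the hormone, was higher in titled-LacZ prepupae. It differed there from larvae by 3.29 ± 0.12 and from titled-mitf prepupae by 3.04 ± 0.12. Cyp6g2 was higher in titled-mitf prepupae than in larvae (1.997 ± 0.44), and lower in titled-LacZ prepupae than in those titled mitf (-3.07 ± 0.44).

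jhamt, a methyltransferase of hormone synthesis, was listed at 12.8, 4.42 and 28.3 in titled-LacZ prepupae and at 0 in all titled-mitf prepupae and all larvae. Of the ring gland markers 4 of 10 had values. Among them sad, an ecdysone synthesis gene, stood at 3.19, 0 and 1.49 in titled-LacZ prepupae, at 300.3, 147 and 553 in titled-mitf prepupae, and at 0 in the larvae. The whole list summed to 27.4 to 47.0 in titled-LacZ prepupae, 152 to 561 in titled-mitf prepupae and 0.778 to 8.29 in larvae, and its part in the results was not tested. The sum in titled-mitf prepupae was mostly sad, and the other markers with values were highest on average in titled-LacZ prepupae. Akh averaged 7.02 there, 0.432 in titled-mitf prepupae and 2.71 in larvae. For amon the means were 12.5, 5.93 and 0.721 in the same order.

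Other genes named for the hormone numbered 19, of which 13 had values and 12 were tested. Of these, jhamt, Jhbp12, Jhbp15 and Jhbp16 passed the filter on low values only through the titled-LacZ libraries, so the counts for that group describe the list and support no direction. In titled-LacZ prepupae 7 were higher and 4 lower than in larvae (median 2.13, against 0.50 over all tested genes). With a filter of at least 10 in 3 libraries, 7 genes were left, of which 2 were higher and 4 lower (median -1.24), and without any 1 replicate titled LacZ the counts were 4 and 4. In titled-mitf prepupae 1 was higher and 4 lower than in larvae (median 0.00, against 0.08, and -1.82 with the stricter filter). Between the prepupa groups 7 were higher and 0 lower in those titled LacZ (median 1.64, against 0.22), 10 higher with library totals, 3 with the stricter filter and 4 without replicate 1 or 3 titled LacZ. Of all tested genes 46.3%, 34.8% and 41.1% were higher and 32.2%, 31.7% and 31.6% lower in these 3 comparisons, in that order. Jhedup and jhamt are in this list. Jhbp2, a putative hormone binding protein, averaged 69.7 ± 28.0 in titled-LacZ prepupae, 31.3 ± 10.3 in titled-mitf prepupae and 0.581 ± 1.01 in larvae. Jhbp7 fell in both prepupa groups (-3.59 ± 0.65 titled LacZ and -3.93 ± 0.65 titled mitf), and Jhbp1 was higher in titled-LacZ prepupae than in those titled mitf (3.68 ± 0.64). JhI-26, named as induced by the hormone, had 509, 85.7 and 346 in titled-LacZ prepupae, 48.4, 60.1 and 66.9 in titled-mitf prepupae, and 1036, 923 and 687 in larvae. Its differences from larvae were -1.81 ± 0.54 in titled-LacZ prepupae, or -1.05 without replicate 2 titled LacZ, and -3.88 ± 0.54 in titled-mitf prepupae.

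Genes for proteins known to act with the receptors were, as deposited, more often lower than higher against larvae. Between the prepupa groups they went both ways. Of 10 listed, 2 were higher and 6 lower in titled-LacZ prepupae than in larvae (median -0.53, against 0.50 over all tested genes, and 4 and 4 with library totals). In titled-mitf prepupae 3 were higher and 7 lower (median -1.23, against 0.08), and between the prepupa groups 4 were higher and 4 lower (median -0.03, against 0.22). That median turned to 0.39 with library totals, to 0.086 without replicate 2 titled mitf and to 0.029 without replicate 3 titled LacZ. Beside these counts, 46.3%, 34.8% and 41.1% of all tested genes were higher and 32.2%, 31.7% and 31.6% lower, in the same order. EcR, the ecdysone receptor, differed by 2.01 ± 0.22 from larvae in titled-LacZ prepupae and by -2.34 ± 0.22 in titled-mitf prepupae. The immunophilin Fkbp39 fell in both, at -3.02 ± 0.27 in titled-LacZ prepupae and -2.89 ± 0.27 in titled-mitf prepupae. Chd64 was higher in titled-mitf prepupae than in larvae (1.66 ± 0.18) and lower in titled-LacZ prepupae than in those titled mitf (-2.30 ± 0.18). Nup153, a nuclear pore protein, was lower in titled-LacZ prepupae than in larvae (-2.51 ± 0.11) and than in titled-mitf prepupae (-1.71 ± 0.11).

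A list of the other bHLH-PAS genes, the family of Met and gce, also held per, a PAS gene without a bHLH domain. In it 4 of 8 genes, per among them, were higher and 1 lower in titled-LacZ prepupae than in larvae (median 1.22, against 0.50). per is also counted in the list of proteins that act with the receptors. With the stricter filter 2 of 6 were higher and 1 lower there (median 0.45), a pseudocount of 5 gave a median of 0.60, and ss had passed the filter only through the titled-LacZ libraries. In this list 5 were higher and 1 lower in titled-mitf prepupae than in larvae (median 0.88, against 0.08). Between the prepupa groups 3 were higher and 3 lower (median 0.22, against 0.22, and -0.045 without replicate 2 titled mitf), or 3 and 1 with library totals. All tested genes were higher in 46.3%, 34.8% and 41.1% of cases and lower in 32.2%, 31.7% and 31.6%, in the same order of comparisons. The clock gene per averaged 339.6 ± 86.1 in titled-LacZ prepupae, 3.29 ± 0.638 in titled-mitf prepupae and 0.984 ± 0.857 in larvae, and its rise in titled-mitf prepupae (1.22 ± 0.40) was lost in 6 of the 18 alternatives. sim, a regulator of midline cells, averaged 772 ± 93.1 in titled-LacZ prepupae and 55.0 ± 8.56 in titled-mitf prepupae, and was listed at 0 in larvae. cyc, the partner of Clock, was lower in titled-LacZ prepupae than in those titled mitf (-3.40 ± 0.27) and higher in titled-mitf prepupae than in larvae (2.89 ± 0.27). sima, the hypoxia factor, fell from the larval level in titled-LacZ prepupae (-1.60 ± 0.13) and in titled-mitf prepupae (-0.96 ± 0.13). ss averaged 14.4 ± 7.11 in titled-LacZ prepupae and was listed at 0 in titled-mitf prepupae.

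The yolk protein genes, targets of the hormone in the adult female fat body, also differed. Yp1 and Yp2 rose over larvae in titled-LacZ prepupae (4.54 ± 0.75 and 5.40 ± 0.49) and fell in titled-mitf prepupae (-3.27 ± 0.75 and -3.39 ± 0.49). Yp3 fell in titled-LacZ prepupae (-2.74 ± 0.17) and in titled-mitf prepupae (-5.04 ± 0.17). All 3 were higher in titled-LacZ prepupae than in those titled mitf, with differences of 7.82 ± 0.75 for Yp1, 8.78 ± 0.49 for Yp2 and 2.29 ± 0.17 for Yp3. Over all tested genes 41.1% were higher and 31.6% lower there. Yp1 stood at 1.85, 2.59 and 0 in titled-mitf prepupae, so the size of its difference depends on the pseudocount. Replicate 2 titled LacZ lay well below replicates 1 and 3, at 152 against 907 and 843 for Yp1 and 1580 against 5663 and 4726 for Yp2.

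For each gene the 2 genes of most similar profile were found among 5493 candidates, by the root mean square difference of log2 values, each profile centred on its own mean, over the 9 libraries. For Met these were deltaCOP (0.167) and Creld (0.185), and for gce teq (0.118) and Arf6 (0.124). Kr-h1 was nearest to Tango2 (0.147) and SCCRO3 (0.154), and tai to crol (0.0897) and Ranbp16 (0.0899). Jheh1 was nearest to Polr3I (0.139) and alpha-Man-Ib (0.150), and Jheh2 to Kcmf1 (0.111) and Tet (0.132). Jheh3 was nearest to Obp99c (0.361) and ppl (0.382), and Jhe to Vmat (0.649) and rho-5 (0.763), at larger distances than the other 6 genes. These are likenesses over 3 groups of 3 libraries, which share their scaling.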

How the data were processed

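The deposited values are a normalised signal per gene, 1 column per library, in units of scaled read counts. Per the submitters' processing notes, bcl2fastq, Salmon 1.5.2, DESeq2 and the build BDGP6 were used; their order and settings are not given in the sources used here. Between 68.2% and 75.9% of low values lay within 0.05 of whole reads, so counts were not recovered, and the sums correspond to an estimated 18509602 to 29054547 reads a library. Symbols, positions and lengths came from Ensembl release 115 of BDGP6, in which 10189 of the 10242 genes had a symbol.

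A gene was tested if 3 or more libraries had a value of 1 or above (10139 genes). The fit was made with limma 3.58.1 under R 4.3.3, using its trended variance, on log2 of the value plus 1, with all 9 libraries together. Tests were two-sided, adjusted by Benjamini-Hochberg over the tested genes and called under 0.05. Shares were tested with scipy 1.17.1. Alternatives changed the pseudocount, filter, scaling, libraries fitted, variance trend and replicate block, or left out 1 library.

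Groups follow the sample titles. The labels do not say whether replicates were separate crosses, so p-values may measure technical spread. Named were all 8 genes, Mitf, the called genes with the 2 highest and 2 lowest differences of each list in each comparison, jhamt, Jhedup, Eip93F, br and Mmp1 in any case, and the 2 genes most like each of the 8. EcR, Fkbp39 and others are therefore given where the rule named them and in the other comparisons for context. The ring gland markers sad, Akh and amon were chosen after their values were seen. A gene that this rule named is not reported here. The genes and lists were chosen with earlier results of these data known.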

Additional observations from a re-analysis of the deposited data

How the results depend on the processing

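The 24 results of the 8 genes (each gene in 3 comparisons) were recomputed under 18 alternatives, and 18 of them kept their direction where called and their side of the threshold under all. The other 6, for Met, gce, Jhe, Jheh2 and Jheh3, are given with the results. Library totals moved the median of all genes to 0.94 for titled-LacZ prepupae against larvae, from 0.50 as deposited, to 0.63 from 0.22 between the prepupa groups, and to 0.13 from 0.08 for titled-mitf prepupae against larvae, and differences are to be read against those medians. Over the alternatives, 4 of the 8 genes were higher and 2 to 4 lower in titled-LacZ prepupae against larvae, 3 to 5 higher and 2 to 3 lower in titled-mitf prepupae against larvae, and 3 higher and 4 to 5 lower between the prepupa groups, where 6609 to 7413 genes were called in all. Of the pathway genes, tested under the same alternatives as an addition made after the data were seen, 4 differences changed sign with a call in either setting, all with library totals: Rack1 (0.056) and usp (0.29) in titled-LacZ prepupae against larvae, and Idi (0.42) and Nup358 (0.020) between the prepupa groups. Others changed sign without a call in either setting. The replicate numbers are not said to mark a shared day or cross. Same-numbered replicates did not deviate together (correlations -0.07 to 0.09), and with the replicate number as a block the counts were 4 higher and 3 lower, 4 and 2, and 3 and 5, as without it, with 7907, 6662 and 7300 genes called in all. Jhe outside the titled-LacZ prepupae rested on a few reads a library, where depth limits any difference.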
